A study of Mus musculus with 12 samples.

Results

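Microglia and macrophage genes were described across embryonic mouse brain arrays as 10 genes, namely Csf1r, Cx3cr1, Tyrobp, Fcer1g, C1qa, C1qb, C1qc, Ptprc, Aif1 and Mrc1. The genes were fixed by name, with earlier results of these data known. Every probe set with a member as its single platform gene symbol was taken, which gave 11 of 45037 probe sets. Cx3cr1 had 2 probe sets and the other members 1 each, and the members made up 10 of the 17097 genes measured. The study held 12 arrays, 3 in each of 4 groups, all of mixed genetic background. YAP overexpression arrays came from E11.5 forebrain and midbrain of TetO-YAP1;Nes-rtTA embryos, and YAP control arrays from the same tissue of Nes-rtTA embryos without the YAP1 transgene. That transgene encodes the mutated YAP1-S127A under a doxycycline-dependent promoter, the transactivator is driven by Nestin, a promoter of neural progenitors, and the dams received doxycycline food at 200 mg/kg from E7.5. Nf2 knockout arrays came from E13.5 dorsal telencephalon of Nf2F/F;Emx1-Cre embryos, and Nf2 control arrays from the same tissue of Nf2F/+;Emx1-Cre embryos. Both Nf2 groups carried Emx1-Cre, which acts in the telencephalon, so the controls kept 1 Nf2 allele there and were not wild type. Neither driver is one of macrophages, and whether macrophages carried the alleles was not measured. Per-embryo origin was not given in the labels, so p-values measure only the spread between these arrays, which may be technical.

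Microglia are the resident macrophages of the brain. They descend from yolk sac progenitors that enter the neural tissue in the embryo, and they depend on the receptor CSF1R for survival. Related macrophages live in the meninges and around vessels at the border of the brain. Embryonic microglia are known for engulfing dying cells and for association with neural progenitors and growing vessels, and they are a local source of the complement protein C1q.

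The manipulated genes differed in the labelled directions, and neither passed the test. Nf2 read 8.06, 8.27 and 8.11 on the log2 intensity scale in Nf2 knockouts, against 8.41, 8.66 and 8.51 in Nf2 controls (difference -0.38, SE 0.09, limma adjusted p = 0.246). Yap1 read 11.35, 11.23 and 11.33 with YAP overexpression, against 11.07, 10.99 and 11.05 in YAP controls (0.27, SE 0.07, limma adjusted p = 0.0551). Whether these probes lie in the deleted or transgenic sequence is not known here. The labelled tissues were checked by 10 marker genes. The midbrain gene En2 read 9.20 to 9.62 over the 6 arrays of forebrain and midbrain, En1 lay near background there, and both lay near background in dorsal telencephalon. Emx1, which marks the cortex, read 7.11 to 7.46 in dorsal telencephalon. Of the 10 marker genes, 5 were called lower with YAP overexpression, against 6.31% of all genes called in either direction. These were Emx1 (-0.58), Emx2 (-0.68), Pax6 (-0.34), Tbr1 (-1.49) and Tubb3 (-0.69), with adjusted limma p from 0.00194 to 0.0172. With Nf2 loss 0 of the 10 were called, against 0.252% of all genes. The YAP groups therefore differed in some of the markers used as a check.

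Most members were dim but above background. The arrays carried no detection calls, so the level of probe sets without transcript was taken from 83 probe sets of olfactory and vomeronasal receptor genes. Their 95th percentile was 4.64 on the log2 scale at E11.5 and 3.69 at E13.5. At E11.5, 2 of the 11 member probe sets lay below that limit, and 1 did at E13.5. A Cx3cr1 probe set lay below it in both experiments, at 2.78 to 2.88 over the 6 arrays at E13.5, and its values are not read as a level. Aif1 averaged 4.63 over the 6 arrays at E11.5, at the limit. Ptprc at E13.5 stood only 0.14 above the limit on average, with all 3 control arrays under it and all 3 knockout arrays over it. Mrc1 stood 2.59 above the limit at E11.5 and 2.97 above it at E13.5. Probe sets differ in affinity, so a brighter probe set does not mean a more abundant transcript. The 2 experiments looked normalized apart from each other, so levels are not compared between the ages either.

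In dorsal telencephalon lacking Nf2, all 10 members had higher mean values than in the Nf2 controls, by 0.04 to 0.55 on the log2 scale, and none passed the test. The largest differences were those of the signalling adaptor gene Tyrobp (0.55, SE 0.14, a 1.46-fold level), the complement genes C1qb (0.49, SE 0.20) and C1qc (0.45, SE 0.15), and the leukocyte phosphatase gene Ptprc (0.42, SE 0.14), with 3 arrays against 3. Limma's adjusted p of the members ran from 0.297 to 0.99, and 0.252% of all genes were called. Fitted on single probe sets, the model called 0 of the 11, with 0.133% of all probe sets called. At an unadjusted p under 0.05, 4 of the 10 were higher and 0 lower, against 3.15% of all genes higher and 3.09% lower. Each SE and p here takes the gene's spread from all 12 arrays, the E11.5 arrays included. Limma on the 6 Nf2 arrays alone put 6 of the 10 higher at an unadjusted p under 0.05, against 656 of 17097 genes. It called 0 of the 10, and 25 of 17097 genes. The knockout arrays lay above all control arrays in 5 of the 10 (Tyrobp, Fcer1g, C1qc, Ptprc and Mrc1), against 6.6% of all genes, and below them in 0, against 6.09%. The median difference of the members was 0.30, and that of all genes -0.003. Over all genes, 48.6% had a positive difference. The members are read out from the same arrays and may stem from the same cells, so these counts are not independent observations. The members were also chosen with earlier results of these data known, so the shares over all genes do not test them as a set. In such bulk tissue, a change in the number of macrophages and a change in RNA per macrophage cannot be told apart.

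**Figure D1:**
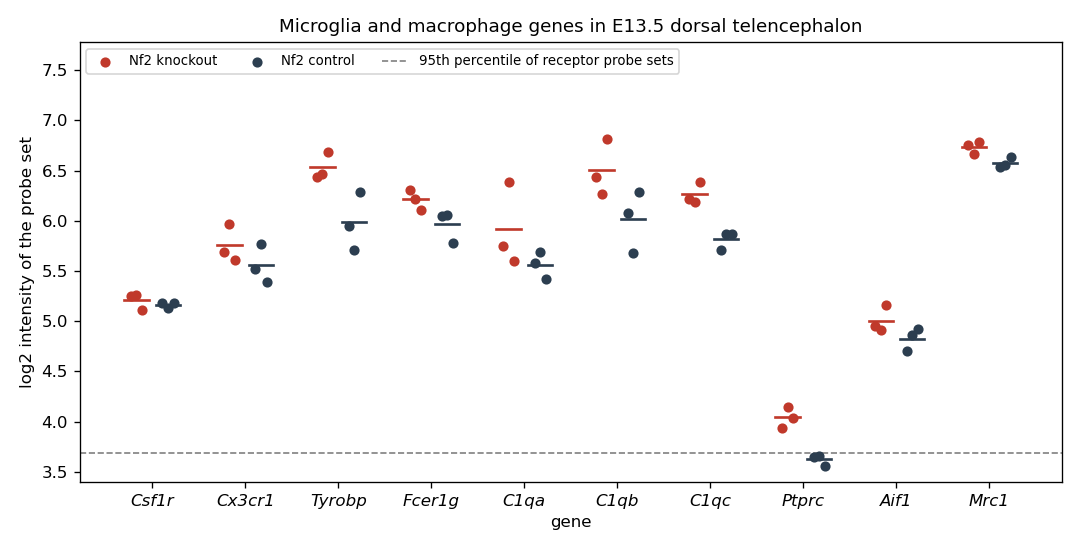
Log2 intensity (y axis) of the probe set that stands for each of the 10 genes (x axis) in dorsal telencephalon at E13.5, with a point per array, a bar at the mean of 3 arrays, and a dashed line at the 95th percentile of 83 receptor probe sets. Knockout points lie above all control points for Tyrobp, Fcer1g, C1qc, Ptprc and Mrc1, and the Ptprc control points lie just under the dashed line.

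Tyrobp encodes DAP12, a membrane adaptor whose cytoplasmic motif recruits the kinase SYK for receptors such as TREM2. It read 6.44, 6.47 and 6.69 in Nf2 knockouts, against 5.95, 5.71 and 6.29 in Nf2 controls. All knockout arrays were higher than all control arrays, although control replicate 3 came close to them. The difference had a 95% interval of 0.25 to 0.85 before any correction, an unadjusted limma p of 0.00197 and an adjusted p of 0.297. Fcer1g encodes the common gamma chain of Fc receptors, an adaptor of the same kind. It read 6.31, 6.22 and 6.11 in Nf2 knockouts, against 6.05, 6.06 and 5.78 in Nf2 controls (0.25, SE 0.12, limma adjusted p = 0.813). The groups did not overlap, and the gap between them was small beside the spread of the controls.

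C1qa, C1qb and C1qc encode the chains of C1q, which recognizes targets in the classical complement pathway. The genes lie side by side on chromosome 4 in GRCm38.p6, C1qb at 136880126 to 136886200, C1qc at 136889801 to 136892936 and C1qa at 136895916 to 136898844. C1qb read 6.44, 6.27 and 6.81 in Nf2 knockouts, against 6.08, 5.68 and 6.29 in Nf2 controls. Its lowest knockout array, at 6.27, lay just under its highest control array, at 6.29, so the groups overlapped slightly. C1qc read 6.22, 6.19 and 6.39 in Nf2 knockouts, against 5.71, 5.87 and 5.87 in Nf2 controls, without overlap. C1qa read 5.75, 6.39 and 5.60 in Nf2 knockouts, against 5.58, 5.69 and 5.42 in Nf2 controls, and knockout replicate 2 carried most of its difference of 0.35 (SE 0.24), which was 0.11 without that array. The adjusted limma p was 0.734 for C1qb, 0.568 for C1qc and 0.922 for C1qa.

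The start regions of C1qb and C1qc are shown as examples of neighbouring members whose windows both hold ETS-type letters of the kind PU.1 can bind. PU.1, encoded by Spi1, is the master transcription factor of macrophages. The sequences are from RefSeq (GRCm38.p6), 5′ to 3′ on the minus strand, at chr4:136886151-136886450 for C1qb and chr4:136892865-136893164 for C1qc, and run from 250 bases before to 50 after a start site. Capitals mark GGAAGT or its reverse complement, the only motif marked.
C1qb: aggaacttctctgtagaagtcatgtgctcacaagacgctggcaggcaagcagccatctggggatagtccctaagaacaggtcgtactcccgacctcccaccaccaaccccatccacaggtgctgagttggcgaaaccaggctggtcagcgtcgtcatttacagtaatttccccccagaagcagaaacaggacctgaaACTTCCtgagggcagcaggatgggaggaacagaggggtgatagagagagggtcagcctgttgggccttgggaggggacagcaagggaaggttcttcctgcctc
C1qc: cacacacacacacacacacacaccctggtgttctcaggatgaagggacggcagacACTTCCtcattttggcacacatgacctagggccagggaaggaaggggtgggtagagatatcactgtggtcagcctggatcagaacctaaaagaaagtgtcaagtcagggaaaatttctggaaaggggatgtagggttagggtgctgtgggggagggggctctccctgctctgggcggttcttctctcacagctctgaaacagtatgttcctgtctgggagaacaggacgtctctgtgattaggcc
The match lay 53 bases before the start site in C1qb and 195 bases before it in C1qc. GGAAGT was found on either strand in 5 of the 8 windows of members, those of C1qb, C1qc, Mrc1 and both of Ptprc, and in 23.8% of all 32851 windows. The 2 Ptprc windows overlap and share a match, so they do not count as separate finds. By gene, 4 of the 7 members with a window held it, and Csf1r, Tyrobp and C1qa had no window. The longer GAGGAAGT, which contains GGAAGT, was found in 1 of the 8 windows, that of C1qc, and in 3.2% of all windows. A match is a description of these letters and not a binding site. Spi1 itself lay near background in both experiments.

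Among the surface receptors, the members differed in size. Ptprc encodes CD45, a phosphatase on the surface of leukocytes. It read 3.94, 4.15 and 4.04 in Nf2 knockouts, against 3.65, 3.66 and 3.56 in Nf2 controls (limma adjusted p = 0.592). This separation was the clearest in relation to its spread among the receptors, and it straddled the background limit. Mrc1 encodes the mannose receptor CD206, found on border macrophages and on some endothelial cells. It read 6.75, 6.67 and 6.78 in Nf2 knockouts, against 6.54, 6.56 and 6.64 in Nf2 controls (0.15, SE 0.13, limma adjusted p = 0.944), without overlap but with a small difference. Cx3cr1, the fractalkine receptor gene, read 5.69, 5.97 and 5.61 in Nf2 knockouts, against 5.52, 5.77 and 5.39 in Nf2 controls on its brighter probe set (0.20, SE 0.15, limma adjusted p = 0.93). Csf1r, the receptor gene for CSF1 and IL-34, read 5.25, 5.26 and 5.11 in Nf2 knockouts, against 5.18, 5.13 and 5.18 in Nf2 controls. Its groups overlapped, and the interval of its difference ran from -0.18 to 0.27. Aif1 encodes the actin-binding protein IBA1, the usual stain for microglia. It read 4.95, 4.91 and 5.16 in Nf2 knockouts, against 4.70, 4.86 and 4.92 in Nf2 controls, with overlap (0.18, SE 0.14, limma adjusted p = 0.934).

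The labels did not say that equal numbers mark pairs. Residuals of same-numbered Nf2 arrays correlated weakly over all genes (0.271, 0.212 and 0.207), so the differences were also read within these assumed pairs. Of the 10 members, 9 were higher in the knockout array of all 3 pairs, against 15.8% of all genes. The exception was Csf1r, at 0.07, 0.13 and -0.07. Tyrobp differed by 0.49, 0.76 and 0.40, and C1qb by 0.36, 0.59 and 0.52. C1qc differed by 0.51, 0.32 and 0.52 and Ptprc by 0.29, 0.49 and 0.48. Each of these 4 was therefore higher in every pair by at least 0.29. Cx3cr1 differed by 0.17, 0.20 and 0.22, the most even of the members. C1qa differed by 0.17, 0.70 and 0.18, so 1 pair stood out. The mean of all 10 members was higher by 0.28, 0.35 and 0.30. With replicate number as a block, limma called no member (adjusted p from 0.132 for Tyrobp to 0.989), 0.222% of all genes were called, and 5 members were higher at an unadjusted p under 0.05, against 3.33% of all genes, where Fcer1g joined Tyrobp, C1qb, C1qc and Ptprc.

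**Figure D2:**
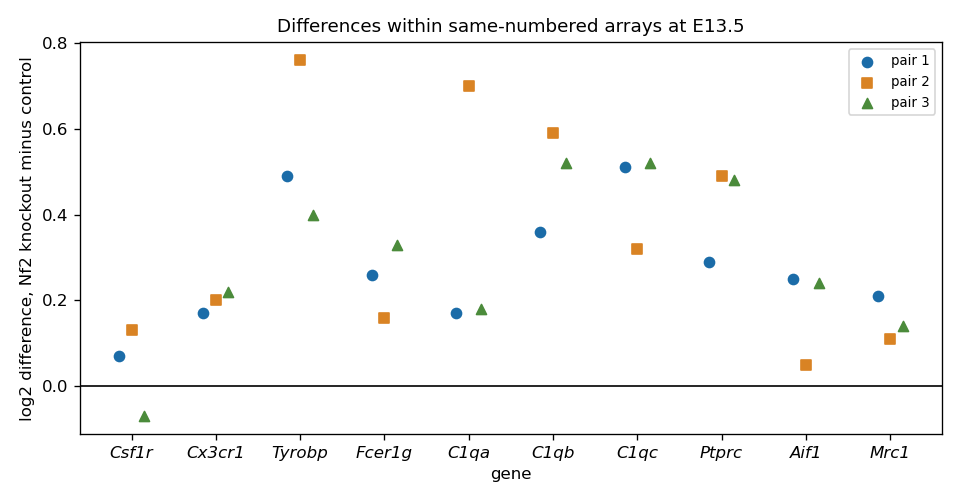
Log2 difference (y axis) of knockout minus control between arrays of the same number at E13.5, for the probe set of each gene (x axis), with a symbol for each of the 3 pairs. All points lie above 0 except that of Csf1r in pair 3, at -0.07.

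With YAP overexpression at E11.5, 7 members had lower and 3 had higher mean values than YAP controls, and none passed the test. Differences ran from -0.34 for C1qa to 0.10 for Tyrobp, with adjusted limma p from 0.293 to 0.922, and 6.31% of all genes were called, with 456 higher and 622 lower, or 528 higher and 472 lower once each array was centred on its median. Of the 10, 0 reached an unadjusted p below 0.05, against 19.6% of all genes. Single probe sets gave 0 calls of 11, with 3.78% of all probe sets called. With the replicate block 0 members were called, against 5.8% of all genes. The groups did not overlap for 1 member, Fcer1g, whose overexpression arrays lay below all control arrays, against 21.3% of all genes without overlap in either direction. The members' median difference was -0.17, and that of all genes -0.007. It was -0.06 without YAP overexpression replicate 3 and -0.10 without YAP control replicate 2. A negative difference was found for 51.5% of all genes. This share depends on scaling, with 7397 of 17097 genes negative once each array was centred on its median. The members' median was -0.14 with that centring.

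Fcer1g read 6.32, 6.40 and 5.94 with YAP overexpression, against 6.47, 6.41 and 6.44 in YAP controls (-0.22, SE 0.12). Overexpression replicate 3 was the low array, and replicate 2 lay close to the controls. C1qa read 4.99, 5.82 and 5.01 with YAP overexpression, against 5.88, 5.36 and 5.60 in YAP controls (-0.34, SE 0.24). Here overexpression replicate 2 lay among the controls and the other 2 below them. C1qb read 6.51, 7.0 and 6.40 with YAP overexpression, against 7.07, 6.98 and 6.63 in YAP controls (-0.26, SE 0.20). C1qc read 5.97, 6.06 and 5.53 with YAP overexpression, against 6.32, 5.79 and 6.04 in YAP controls (-0.20, SE 0.15). For all 3 C1q genes, overexpression replicate 2 was the highest of its group and the groups overlapped.

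Mrc1 read 7.21, 7.15 and 6.92 with YAP overexpression, against 7.48, 7.57 and 7.01 in YAP controls (-0.26, SE 0.13, limma adjusted p = 0.293). YAP control replicate 3 was its low control, and without that array Mrc1 was called lower (-0.43, adjusted p = 0.0355), the only call of a member in any of the fits run. Tyrobp read 7.06, 6.97 and 7.11 with YAP overexpression, against 7.16, 6.76 and 6.92 in YAP controls, with an interval of the difference from -0.20 to 0.40. Csf1r read 5.71, 5.70 and 5.96 with YAP overexpression, against 5.87, 5.50 and 5.76 in YAP controls (0.08, SE 0.10). Cx3cr1 read 5.54, 5.96 and 6.01 with YAP overexpression, against 5.78, 5.63 and 5.98 in YAP controls (0.04, SE 0.15). Ptprc read 4.91, 5.14 and 5.12 with YAP overexpression, against 5.03, 5.60 and 4.96 in YAP controls (-0.14, SE 0.14). Aif1, at the background limit, read 4.65, 4.90 and 4.27 with YAP overexpression, against 4.71, 4.74 and 4.53 in YAP controls. The groups overlapped for each of these 6 genes.

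**Figure D3:**
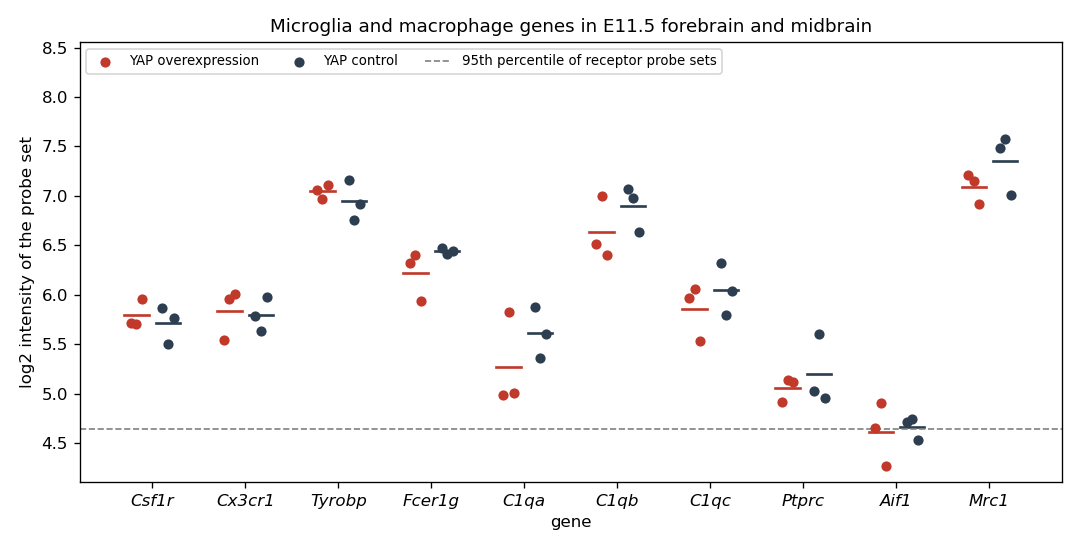
Log2 intensity (y axis) of the probe set of each gene (x axis) in forebrain and midbrain at E11.5, with a point per array, a bar at the mean of 3 arrays, and a dashed line at the 95th percentile of 83 receptor probe sets. The groups overlap for 9 genes, the overexpression points of Fcer1g lie below its controls, and Aif1 straddles the dashed line.

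The effect of YAP overexpression minus that of Nf2 loss was tested in the same fit. It was negative for 9 of the 10 members, with a median of -0.46, and no member was called (limma adjusted p from 0.293 to 0.965, with 0.281% of all genes called, or 0 members and 0.123% of all genes with the replicate block). Over all genes, 51.3% had a negative value, or 7692 of 17097 genes once each array was centred on its median. Age and tissue differ between the experiments too, so the source of such a difference cannot be told apart. At an unadjusted p under 0.05 the difference was negative for 6 members, against 5.66% of all genes. The largest were C1qb (-0.75, SE 0.28), C1qa (-0.69, SE 0.34) and C1qc (-0.65, SE 0.21), and the adjusted limma p was lowest for C1qc at 0.293. Ptprc differed by -0.56 (SE 0.20), Fcer1g by -0.47 (SE 0.17), Tyrobp by -0.45 (SE 0.20) and Mrc1 by -0.41 (SE 0.18). Csf1r had the smallest value, 0.04, with an interval from -0.28 to 0.35.

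**Figure D4:**
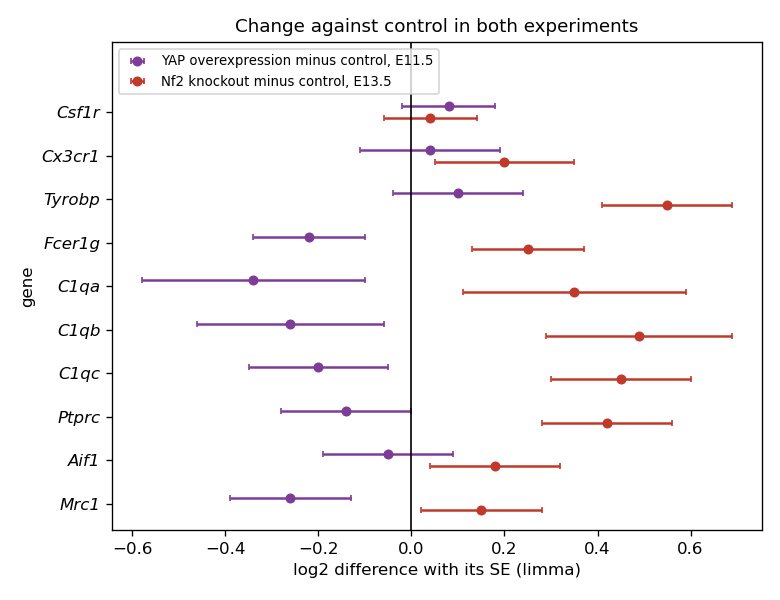
Log2 difference from the experiment's own controls (x axis) with its limma SE, for each gene (y axis), with YAP overexpression drawn above Nf2 knockout. The Nf2 differences of all 10 genes lie above 0, and 7 of the YAP differences lie below 0.

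The members varied little together among arrays of 1 group. With group means subtracted, the correlation across the 12 arrays over the 45 pairs of members had a median of 0.06 and ran from -0.68 to 0.71, and 28 of the 45 were positive. The 3 C1q genes correlated with each other at 0.06, 0.40 and 0.45, and the adaptors Tyrobp and Fcer1g at -0.54. These values share the arrays and their normalization and rest on few free points. The genes whose deviations were most like the mean of the 9 members above the background limit in both experiments were Igfbp5 (r = 0.939), Pramel32 (0.938), Notch3 (0.931), Aatk (0.923) and Upk3bl (0.922), as a description over 12 arrays. Pramel32 and Upk3bl averaged 4.27 and 4.10 at E11.5 on the log2 scale at E11.5, below the limit. That mean was itself led by C1qa (r = 0.799).

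Other genes of macrophages were taken from gene lists, and limma called none of them in either experiment. From each list, the genes with the brightest probe sets over the 12 arrays are named, to give values furthest from background. Of 16 other phagocyte and leukocyte genes, 9 had a positive and 7 a negative difference in Nf2 knockouts (median 0.12), with 4 higher without overlap, against 6.6% of all genes, and 10 were positive and 6 negative with YAP overexpression (median 0.03). Of these 16 genes, 6 lay near background at E13.5 and 5 at E11.5. The brightest were Coro1a (-0.04 with Nf2 loss), Lcp1 (-0.09) and Ctss, a lysosomal protease gene (0.36). Ctss read 7.39, 7.28 and 7.34 in Nf2 knockouts, against 7.0, 7.02 and 6.92 in Nf2 controls (limma adjusted p = 0.713). Adgre1, which encodes a macrophage surface receptor, was picked after its values were seen, since its adjusted p in the Nf2 experiment was the lowest of the 16. It read 4.56, 4.55 and 4.35 in Nf2 knockouts, against 4.15, 4.01 and 4.07 in Nf2 controls (0.41, SE 0.09, limma adjusted p = 0.128). At E11.5 it read 5.21, 5.41 and 5.14 with YAP overexpression, against 5.20, 5.22 and 5.30 in YAP controls, where the groups overlapped.

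Among 10 microglia-enriched genes, 7 had a positive and 3 a negative difference in Nf2 knockouts (median 0.14), and 5 went each way with YAP overexpression (median 0.00). The brightest were Olfml3 (-0.10 with Nf2 loss), Fcrls (0.09) and Tmem119 (0.31, SE 0.23). Olfml3 differed by 0.55 (SE 0.17, limma adjusted p = 0.091) with YAP overexpression. Of these 10 genes, 4 lay near background in each experiment. Of 10 genes of border and fetal macrophages, 8 were positive and 2 negative in Nf2 knockouts (median 0.06), and the brightest over the 12 arrays were the chemokine gene Pf4 (0.16, SE 0.11), F13a1 (0.35, SE 0.17) and Stab1 (0.05, SE 0.13). With YAP overexpression 6 were positive and 4 negative (median 0.01). Of these 10 border and fetal macrophage genes, 4 lay near background at E13.5 and 5 at E11.5.

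Partners of the adaptors, which include receptors that need DAP12 or the Fc receptor gamma chain and the kinases they recruit, had 5 positive and 2 negative differences of 8 in Nf2 knockouts (median 0.06) and 5 positive and 3 negative with YAP overexpression (median 0.02). Fcgr3, an activating Fc receptor gene, read 5.24, 5.21 and 5.17 in Nf2 knockouts, against 4.83, 4.85 and 5.13 in Nf2 controls (0.27, SE 0.15). Fcgr1, another Fc receptor gene, read 4.97, 4.63 and 4.61 in Nf2 knockouts, against 4.34, 4.62 and 4.66 in Nf2 controls (0.20, SE 0.12). Its groups overlapped. Trem2, the lipid receptor that signals through DAP12, read 4.24, 4.09 and 4.48 in Nf2 knockouts, against 4.11, 3.81 and 3.90 in Nf2 controls (0.33, SE 0.11, limma adjusted p = 0.592), with overlap. Of the 8 genes of this list, 4 lay near background in each experiment.

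Of 9 myeloid transcription factors, of which 4 lay near background in each experiment, 3 had a positive and 6 a negative difference in Nf2 knockouts (median -0.09), and likewise 3 and 6 with YAP overexpression (median -0.11). The brightest, Sall1 (0.08 with Nf2 loss) and Mef2c (-0.15), are also expressed by neural cells. Among 6 ligand genes for microglial receptors, 4 were positive and 2 negative in either experiment (median 0.07 with Nf2 loss and 0.14 with YAP). Of these 6 genes, 2 lay near background at E13.5 and 3 at E11.5. Csf1, a ligand of CSF1R, differed by 0.08 (SE 0.13) with Nf2 loss and 0.05 (SE 0.13) with YAP. Cd200, whose product restrains microglia through a receptor on them, read 6.82, 6.97 and 7.05 in Nf2 knockouts, against 7.06, 7.34 and 7.31 in Nf2 controls (-0.29, SE 0.26, limma adjusted p = 0.954). Its knockout arrays lay below all control arrays, and it differed by -0.29 (SE 0.26) with YAP overexpression too, with overlap. Cx3cl1, the ligand of CX3CR1, read 4.62, 4.57 and 4.41 in Nf2 knockouts, against 4.33, 4.11 and 4.30 in Nf2 controls (0.29, SE 0.10, limma adjusted p = 0.64), and its knockout arrays lay above all control arrays.

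Of 10 other complement genes, 6 lay near background at E13.5 and 7 at E11.5. At E11.5 1 of the 10 was called with YAP overexpression, against 6.31% of all genes, so the count lay near the general share. The gene called, as higher, was C1qbp, which encodes a mitochondrial protein that can bind C1q. It read 13.49, 13.40 and 13.57 with YAP overexpression, against 13.24, 13.19 and 13.26 in YAP controls (0.26, SE 0.07, limma adjusted p = 0.0387), and differed by -0.01 (SE 0.07) with Nf2 loss. Serping1, the C1 inhibitor gene, differed by 0.27 (SE 0.09, limma adjusted p = 0.605) in Nf2 knockouts and Cd93 by -0.34 (SE 0.14). Of 9 engulfment genes, 3 were positive and 6 negative in Nf2 knockouts (median -0.05), and 5 positive and 4 negative with YAP overexpression (median 0.01). The brightest were Cd47 (-0.12 with Nf2 loss), Mfge8 (-0.04) and Elmo1 (-0.05).

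Most endothelial and erythroid markers had lower mean values in Nf2 knockouts, opposite in sign to the members, and limma called none of them. Of 12 endothelial genes, 12 had a negative difference in Nf2 knockouts (median -0.30), 3 of them without overlap, against 6.09% of all genes lower without overlap. Their summed intensity ran from 754.8 to 1128 in Nf2 knockouts, against 1035 to 1188 in Nf2 controls. By mean log2 level the 3 knockout arrays stood 0.00, -0.32 and -0.58 from the control mean, so knockout replicates 2 and 3 were low in endothelial genes and replicate 1 was not. The members stood 0.26, 0.34 and 0.32 above their control mean in these same arrays. Without knockout replicate 3, 10 of 10 members stayed positive (median 0.32) and 11 of 12 endothelial genes negative (median -0.20). Of 7 erythroid genes, 6 had a negative difference in Nf2 knockouts (median -0.24), 5 of them without overlap, and their summed intensity ran from 16100 to 17780 in Nf2 knockouts, against 19380 to 19610 in Nf2 controls. With 1 array left out, the erythroid median ran from -0.22 (without Nf2 control replicate 1) to -0.50 (without Nf2 control replicate 2). It was -0.38 without Nf2 knockout replicate 3. Without Nf2 control replicate 3, 5 of 7 erythroid genes were negative (median -0.25). The brightest erythroid genes encode globin chains, Hba-a1 (-0.23, SE 0.07), Hbb-y (-0.13, SE 0.06) and Hba-x (-0.47, SE 0.10). Picked after their values were seen, Alas2 (-0.79, SE 0.16, limma adjusted p = 0.094) and Slc4a1 (-0.70, SE 0.18, limma adjusted p = 0.305) had the largest erythroid differences. Of 11 genes of mesenchyme and pericytes, 4 were positive and 7 negative in Nf2 knockouts (median -0.05), with summed intensities from 3227 to 4026 in Nf2 knockouts, against 3721 to 4075 in Nf2 controls. The part of these shifts in the members' values was not tested.

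Markers of lymphoid cells, granulocytes and mast cells were near background for 8 of 10 genes at E13.5 and 9 of 10 at E11.5. Their summed intensity ran from 98.92 to 110.8 in Nf2 knockouts, against 101.0 to 107.3 in Nf2 controls, and the groups overlapped. The members' summed intensity ran from 624.9 to 662.4 in Nf2 knockouts, against 506.1 to 532.7 in Nf2 controls. At E11.5 the members' sum ran from 664.3 to 782.4 with YAP overexpression, against 721.7 to 855.6 in YAP controls. There, 6 of 7 erythroid genes were negative (median -0.12), with sums from 64070 to 70350 with YAP overexpression, against 72760 to 76070 in YAP controls. The endothelial genes went 6 each way (median 0.03), and mesenchymal genes were negative in 8 of 11 (median -0.24). Their part in the members' values was not tested either.

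**Figure D5:**
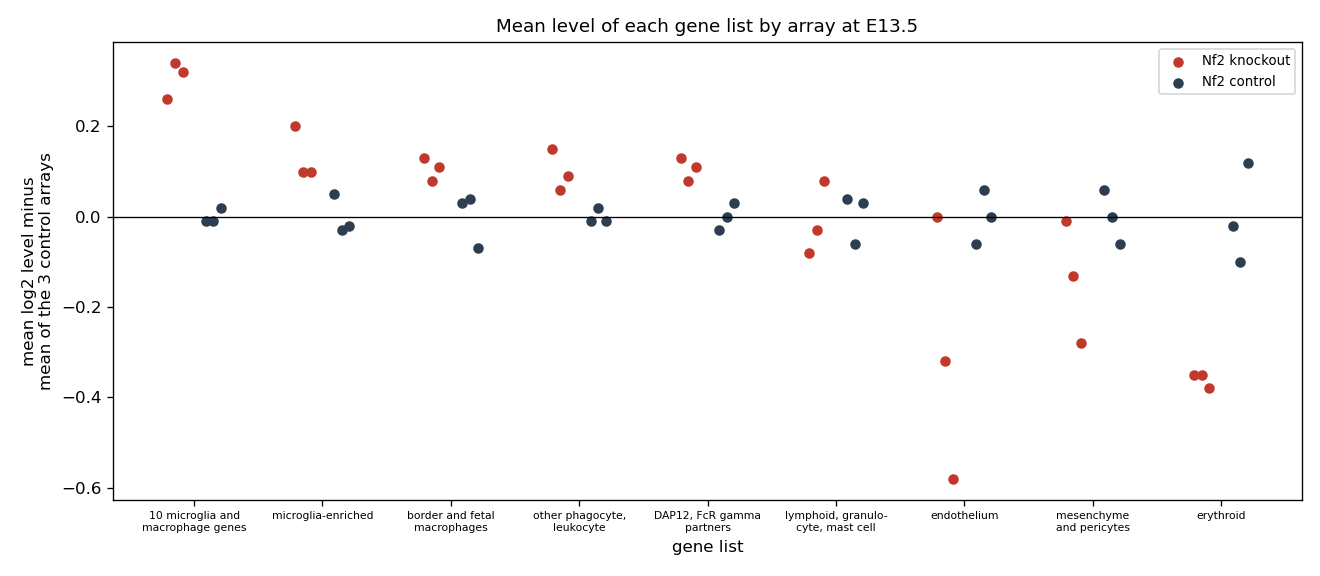
Mean log2 level of each gene list in an array minus the mean of the 3 Nf2 control arrays (y axis), for 9 gene lists (x axis) at E13.5, with a point per array. The members lie 0.26 to 0.34 above the control mean in Nf2 knockouts, while the erythroid list lies 0.35 to 0.38 below it and the endothelial list spreads from 0.00 to -0.58.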

How the data were processed

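RNA from 12 arrays was measured by 3' IVT biotin labelling, per the labels' protocols. The deposited values are log2 intensities per probe set. Per the submitters' processing notes the tools were RMA, Partek 6.5 and Affymetrix Expression Console 1.1, with no role given. Of 45037 probe sets, 28898 had a single gene symbol in the 2016 platform table, and 28689 of those matched a current symbol by Entrez ID. Where a gene had several, the brightest on average stood for it, which left 17097 genes. Limma 3.58.1 (R 4.3.3) fitted 1 mean for each of the 4 groups over the 12 arrays, with Benjamini-Hochberg adjustment over all genes, two-sided, and calls at an adjusted p under 0.05. Each gene had 1 residual spread over all 12 arrays, so its SE was the same in both experiments. The same model was fitted to all probe sets. With 3 arrays against 3, the smallest two-sided p of an exact permutation test is 0.1, so none was run. Residuals of same-numbered arrays correlated at 0.271, 0.212 and 0.207 in the Nf2 experiment, which was taken as pairing. They correlated at 0.0971, -0.195 and -0.204 in the YAP experiment, which was not. Differently numbered Nf2 arrays correlated at -0.228 to -0.000108. YAP overexpression replicate 3 and YAP control replicate 2 reached 0.304 without a shared number, so values of this size do not establish pairing. The pipeline was tested on simulated data.

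The members and lists were chosen with earlier results of these data known. The rule for named genes was all members, every listed gene called, up to 3 listed genes a list with the highest level, and the 5 genes most like the members. Adgre1, Alas2, Slc4a1, Spi1, En1 and En2 were named outside this rule, after their values were seen. Listed genes with no single-gene probe set were not analysed here. The 13 lists hold 140 further genes, 126 of them measured. The number of arrays limits the precision. Alternatives covered the probe set choice, dim genes, scaling, array weights, the replicate block, the experiment alone and each array left out.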

Additional observations from a re-analysis of the deposited data

How the results depend on the processing

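No member was called in the Nf2 experiment under any alternative run, with the lowest adjusted p at 0.0811 (Tyrobp without Nf2 control replicate 3), and every member tested kept a positive difference in each. The members' median difference of 0.30 became 0.35 without _x_at and _s_at probe sets and 0.25 with genes above the array median alone, since each of these leaves 9 members, and ran from 0.24 to 0.33 with 1 array left out. In the YAP experiment 0 to 1 members were called with 1 array left out, Mrc1 without YAP control replicate 3, and 0 under the other alternatives. The median of -0.17 there ran from -0.24 to -0.06 with 1 array left out. Differences of 4 members changed sign there with 1 array left out, Csf1r (-0.03 to 0.16), Cx3cr1 (-0.05 to 0.19), Ptprc (-0.26 to 0.06) and Aif1 (-0.20 to 0.12), and none of these was called. The replicate block changed no call of a member, with 0 called in either experiment and for the difference of the effects, and lowest adjusted p of 0.132 with Nf2 loss, 0.0913 with YAP overexpression and 0.2 for the difference. The tests on single probe sets called 0 members in each experiment under every alternative run. Near background stood 1 member probe set at E11.5 with the 75th percentile as limit, in place of 2, and 2 at E13.5 with the median of all probe sets, in place of 1. Over all genes, the count called ran from 361 to 1398 (1078 as reported) with YAP overexpression, from 20 to 67 (43) with Nf2 loss and from 21 to 161 (48) for the difference of the effects. Array signal near background limits Aif1, Ptprc and the dim Cx3cr1 probe set most.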
